A study of Mus musculus with 18 samples.

Results

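A set of 10 genes of the inflammasome, pyroptosis and necroptosis pathways was followed by TRAP-RNAseq in the mouse brain 24 h after systemic lipopolysaccharide (LPS), the endotoxin of Gram-negative bacteria. They were chosen by gene symbol from the 36172 genes of the count table: the sensors Nlrp3 and Aim2, the adaptor Pycard, the caspases Casp1, Casp4 and Casp8, the pore former Gsdmd, and the necroptosis genes Ripk3, Mlkl and Zbp1. Brains came from young adult Cx3cr1-cre/ERT2+; NuTRAP+ mice of both sexes, in which tamoxifen makes cells with an active Cx3cr1 promoter tag their ribosomes with EGFP. In the brain these are mostly microglia, but border-associated macrophages use that promoter too. Blood monocytes also use it, and the weeks between tamoxifen and collection were meant to let labelled monocytes, which are short-lived, be replaced. All animals carried the same alleles and had received tamoxifen 3 to 4 weeks before they were given either 5 mg/kg LPS or the vehicle, phosphate-buffered saline (PBS), into the peritoneum. Lysate of a brain hemisphere was divided into an input, which holds RNA of all brain cells, and a positive fraction, pulled down with an antibody against GFP. The 4 PBS animals (2 female, 2 male) and 5 LPS animals (4 female, 1 male) are called by their label numbers, and their libraries form 4 groups, with 5 libraries in Positive LPS and 4 each in Positive PBS, Input PBS and Input LPS. The input library of LPS animal 271 held 1252 counts and was left out, whereas the 17 libraries used held from 22968939 to 35123345.

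Inflammasomes are assemblies in which a sensor such as NLRP3 or AIM2 recruits, through the adaptor ASC, the protease caspase-1. Caspase-1 matures the cytokines IL-1β and IL-18 and cuts gasdermin D, whose freed end forms pores in the cell membrane, a lytic death called pyroptosis. Mouse caspase-4, long called caspase-11, binds cytosolic LPS itself and also cuts gasdermin D. Necroptosis is another lytic death, in which RIPK1 or the nucleic acid sensor ZBP1 engages the kinase RIPK3 and RIPK3 phosphorylates the membrane-disrupting effector MLKL, while caspase-8 with its partner cFLIP restrains it. In microglia the parts of these pathways are kept at different resting levels, and a first signal such as LPS is known to raise Nlrp3 and Il1b transcripts before a second signal starts assembly. RNAseq reads transcripts only, so neither cleavage nor cell death was measured here.

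The labelled cell type was checked against its markers. All 10 microglia markers listed (Cx3cr1, P2ry12, Tmem119 and others) were higher in the positive fraction than in input, with a median log2 fold change of 4.22 after PBS and 4.03 after LPS, and so were all 7 border-associated macrophage markers (medians 4.02 and 3.37). The positive fraction also held neuronal and astrocyte transcripts. The 5 neuron markers summed to between 127226 and 188094 normalised counts there and to between 145193 and 167620 in input. Of these, 2 were called higher in the positive fraction than in input in each treatment and none lower. The 5 astrocyte markers summed to between 29342 and 54969 in the positive fraction and to between 37370 and 65727 in input. None was called higher, and 2 were called lower after PBS and 3 after LPS. All 6 endothelial markers were called higher in the positive fraction than in input after PBS, with a median log2 fold change of 1.45. After LPS 4 of the 6 were, with a median of 0.72. Markers of several cell types moved with treatment. In the positive fraction 5 of 10 microglia markers were called lower after LPS and 2 higher, and 4 of 7 border-associated macrophage markers lower, with sums of 4953 to 9718 after PBS and 3493 to 5885 after LPS. In input all 4 oligodendrocyte markers were called lower. Of 10 neutrophil markers listed, 6 were tested and 5 were called higher after LPS in each fraction. The neutrophil sum ran from 140 to 327 normalised counts in Positive PBS and from 431 to 1155 in Positive LPS, and from 469 to 850 in Input PBS and from 769 to 1674 in Input LPS. Ly6g, a defining neutrophil marker, was at 0 in every library, and Elane was at 0 in every library outside Input PBS. Monocyte markers summed to between 1286 and 3149 in Positive PBS and between 696 and 1653 in Positive LPS, and no lymphocyte marker passed the filter. In these bulk fractions more cells of a type and more RNA per cell cannot be told apart, and the part of other cell types in the results was not tested.

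The promoters are shown first, because Casp1 and Casp4 lie side by side and most of the 10 genes were higher after LPS. In mm10 Casp1 (chromosome 9, 5298517 to 5307281, plus strand) ends 1578 bases before the start of Casp4 (5308860 to 5336791, plus strand), and the next gene of the row, Casp12, starts 8684 bases after Casp4. RefSeq promoter windows, from 250 bases before to 50 bases after a start site in GRCm38.p6, were at hand for 8 of the 10 genes, all but Gsdmd and Zbp1, as 10 windows in all. They were searched on both strands for the NF-kB motif, for the core of the interferon-stimulated response element (GAAANNGAAA) and for the GAS element (TTCNNNGAA). Of all 32851 promoter windows, 8.46% held the NF-kB motif, 3.44% the interferon element core and 8.30% the GAS element. Among the windows of these genes only the NF-kB motif was found, in Casp4 and in the upstream window of Nlrp3. The windows below, all on the plus strand and written 5′ to 3′, show these matches in capitals, with the window of Casp1, in which none of the motifs was found, for comparison.
Casp4 promoter, chr9:5308610-5308909: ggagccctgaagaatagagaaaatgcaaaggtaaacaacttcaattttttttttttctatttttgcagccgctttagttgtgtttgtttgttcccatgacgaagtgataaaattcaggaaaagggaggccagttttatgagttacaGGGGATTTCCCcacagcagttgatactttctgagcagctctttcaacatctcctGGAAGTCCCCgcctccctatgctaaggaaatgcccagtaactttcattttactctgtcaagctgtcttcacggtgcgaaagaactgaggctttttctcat
Nlrp3 upstream promoter, chr11:59541319-59541618: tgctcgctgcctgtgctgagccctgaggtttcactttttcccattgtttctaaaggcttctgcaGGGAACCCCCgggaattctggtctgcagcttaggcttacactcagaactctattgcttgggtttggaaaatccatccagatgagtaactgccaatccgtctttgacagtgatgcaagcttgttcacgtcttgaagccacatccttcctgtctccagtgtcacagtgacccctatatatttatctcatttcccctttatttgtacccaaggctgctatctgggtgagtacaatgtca
Casp1 promoter, chr9:5298267-5298566: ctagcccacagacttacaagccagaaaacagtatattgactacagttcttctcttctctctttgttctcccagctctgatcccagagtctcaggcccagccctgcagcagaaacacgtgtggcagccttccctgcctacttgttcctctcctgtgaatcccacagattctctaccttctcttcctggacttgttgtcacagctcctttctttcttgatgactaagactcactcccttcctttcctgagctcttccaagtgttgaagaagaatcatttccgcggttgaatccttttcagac
In the Casp4 window the motif was matched from positions -104 and -103, as overlapping matches that differ by 1 base, and from position -50 on the other strand, counted from the start site. In the Nlrp3 window it was matched from position -186. A match describes letters, not a bound site, and no match says only that these letters are not in the window.

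The first question was whether LPS changed the transcripts of these genes in the tagged cells. In the positive fraction 9 of the 10 genes were called higher after LPS and none lower, where a call needed an adjusted p under 0.05 and a change of more than 25%. Of all 14803 genes tested, 19.0% were called higher in that comparison. The median log2 fold change of the 10 genes was 1.58, against 0.01 over all genes tested. Groups did not overlap for 9 of the 10 genes, as for 17.1% of all genes with LPS higher. Zbp1 rose most (14.6-fold), then Ripk3 (6.65-fold), Nlrp3 (3.86-fold), Casp4 (3.77-fold) and Pycard (3.32-fold), and Aim2 rose least among those called (1.69-fold). Casp8 was not called. In input 9 of the 10 genes were called higher, against 7.16% of all genes tested, with a median log2 fold change of 1.47 against 0.00. Groups in input did not overlap for 9 of the 10 genes, as for 12.6% of all genes with LPS higher. Input and positive libraries of an animal share their tissue, and with the animal as a block (limma voom) 6 of the 10 genes were called in input and 9 in the positive fraction. All 10 genes passed the filter on low counts, but Mlkl passed only through Positive LPS, where it was highest, so its call in that fraction was partly set by the filter. With no filter the count in the positive fraction was 9 as well.

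**Figure D1:**
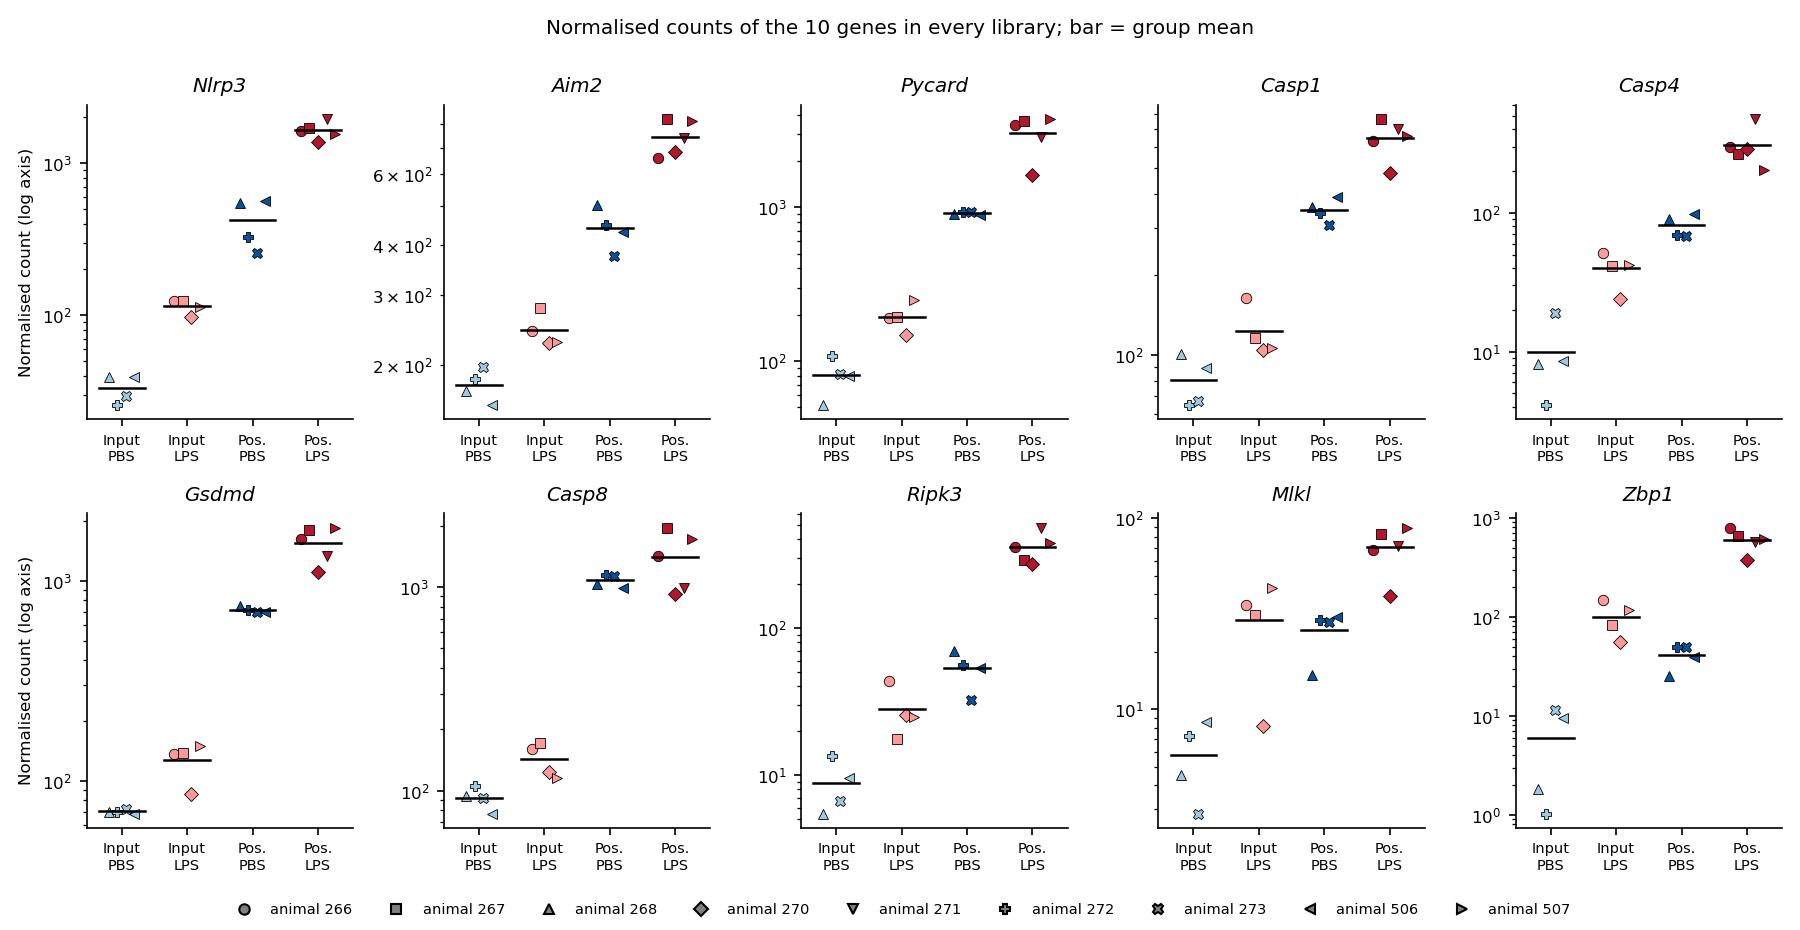
Normalised counts (log axis) of the 10 genes in the 17 libraries, by group, with a symbol for each animal and a bar at the group mean. In 9 of the 10 panels every Positive LPS library lies above every Positive PBS library, and in the Casp8 panel the animals 270 and 271 lie below them.

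Among the sensors, Nlrp3 (chromosome 11, 59542686 to 59566956, plus strand) encodes the sensor that responds to potassium efflux and many other signs of cell damage. Its normalised counts were 256, 327, 549 and 563 in Positive PBS and 1367, 1553, 1628, 1692 and 1948 in Positive LPS. In input it was at 25.8, 29.4, 39.1 and 39.2 after PBS and at 97.7, 114, 124 and 124 after LPS. No LPS library overlapped the PBS libraries of its fraction, and the PBS animals differed among themselves by more than 2-fold in the positive fraction. The log2 fold change after LPS was 1.95 ± 0.19 (SE) in the positive fraction (adjusted p = 4.78e-07) and 1.78 ± 0.25 in input (adjusted p = 6.03e-05). Aim2 (chromosome 1, 173420604 to 173466036, plus strand) encodes a sensor of cytosolic double-stranded DNA. It lay at 376, 431, 449 and 503 in Positive PBS and at 660, 682, 740, 818 and 826 in Positive LPS. In input its counts were 159, 172, 185 and 198 after PBS and 227, 229, 243 and 278 after LPS. These groups were separate but close, and the rise was the smallest of those called, with a log2 fold change of 0.76 ± 0.11 (adjusted p = 3.10e-05) in the positive fraction and 0.45 ± 0.12 (adjusted p = 0.0157) in input. The input call of Aim2 was lost with the animal as a block (0.45, adjusted p = 0.0531), without Input LPS 267 (0.39, adjusted p = 0.0524) and without Input PBS 506 (0.40, adjusted p = 0.0544).

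Pycard (chromosome 7, 127991373 to 127993867, minus strand) encodes ASC, the adaptor that joins sensor to caspase-1. The 4 Positive PBS libraries lay close together at 896, 907, 933 and 938 normalised counts, a mean of 918 ± 20.2 (SD, n = 4). Positive LPS libraries spread from 1626 in animal 270 through 2845, 3414 and 3608 to 3751. Input libraries lay at 51.9, 80.0, 82.6 and 108 after PBS and at 147, 190, 194 and 248 after LPS. Every LPS library was above the PBS libraries of its fraction, and in the positive fraction the LPS animals varied far more (SD 867) than the PBS animals. The log2 fold change was 1.73 ± 0.20 in the positive fraction (adjusted p = 3.86e-06) and 1.28 ± 0.25 in input (adjusted p = 0.00153).

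The inflammatory caspases differed in size of change. Casp1 encodes the protease of the canonical inflammasome. It was at 306, 340, 358 and 391 normalised counts in Positive PBS and at 479, 632, 659, 702 and 767 in Positive LPS. In input it was at 65.0, 67.4, 89.5 and 101 after PBS, and at 104, 106, 116 and 164 after LPS, so that the highest PBS and the lowest LPS library nearly met. Its log2 fold change was 0.89 ± 0.16 in the positive fraction (adjusted p = 3.11e-04) and 0.60 ± 0.19 in input (adjusted p = 0.0394). The input call was lost with the animal as a block (0.61, adjusted p = 0.103), with limma voom alone (0.58, adjusted p = 0.110), without Input LPS 266, the highest library (0.42, adjusted p = 0.153), and without Input LPS 267 or any of the Input PBS animals 272, 273 and 506 (0.50 to 0.65, adjusted p 0.0528 to 0.121). Casp4, its neighbour, encodes the receptor and protease for cytosolic LPS in the non-canonical pathway. It lay at 67.9, 69.5, 90.4 and 98.1 in Positive PBS and at 204, 268, 289, 300 and 476 in Positive LPS. Input counts were 4.13, 8.20, 8.57 and 19.0 after PBS and 23.8, 41.4, 42.3 and 51.6 after LPS. The groups did not overlap in either fraction, although all 4 Input PBS libraries were under 20. Casp4 rose by 1.92 ± 0.28 on the log2 scale among positive libraries (adjusted p = 4.20e-05) and by 1.97 ± 0.39 in input (adjusted p = 0.00135).

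Gsdmd (chromosome 15, 75862339 to 75867404, plus strand) encodes gasdermin D, the pore former cut by both inflammatory caspases. Positive PBS libraries lay at 695, 698, 716 and 748 normalised counts and Positive LPS libraries at 1107, 1329, 1621, 1801 and 1848. The 4 Input PBS libraries were nearly identical, at 68.6, 70.2, 70.2 and 72.2 (mean 70.3 ± 1.47, SD, n = 4), whereas Input LPS ran from 85.4 in animal 270 to 136, 138 and 149. Neither fraction showed overlap. The log2 fold change was 1.11 ± 0.15 in the positive fraction (adjusted p = 1.41e-05) and 0.85 ± 0.18 in input (adjusted p = 0.00293). In input the call was lost with limma voom (0.82, adjusted p = 0.0679) and with the animal as a block (0.78, adjusted p = 0.0608).

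Casp8 (chromosome 1, 58795374 to 58847503, plus strand) encodes the protease of death receptor complexes, which starts apoptosis and holds back necroptosis. Positive PBS libraries lay at 989, 1040, 1134 and 1150 normalised counts. Positive LPS libraries fell on both sides of them, at 924 in animal 270 and 987 in animal 271, and at 1427, 1720 and 1963 in animals 266, 507 and 267. The LPS animals thus spread over 2-fold while the PBS animals were close together, and the log2 fold change of 0.38 ± 0.19 did not pass the test (adjusted p = 0.110). The gene was called without Positive LPS 270 (0.50, adjusted p = 0.0250), without Positive LPS 271 (0.49, adjusted p = 0.0398) and with sex as a covariate (0.47, adjusted p = 0.0302). In input Casp8 was at 77.2, 92.1, 93.9 and 105 after PBS and at 115, 123, 160 and 172 after LPS. The input groups did not overlap, yet the log2 fold change of 0.63 ± 0.22 missed the threshold as well (adjusted p = 0.0672). It was called in input with DESeq2 (0.63, adjusted p = 0.0337), with sex as a covariate (0.71, adjusted p = 0.0214), when only input libraries were fitted (0.62, adjusted p = 0.0325), and without Positive LPS 267, 270 or 271 (0.63 each, adjusted p = 0.0409, 0.0353 and 0.0456). With the animal as a block its input value was 0.51 (adjusted p = 0.385).

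The necroptosis genes followed. Ripk3 (chromosome 14, 55784995 to 55788857, minus strand) encodes the kinase of the necrosome. Its normalised counts were 32.6, 53.5, 56.2 and 69.7 in Positive PBS and 272, 290, 353, 380 and 482 in Positive LPS. Input libraries held 5.47, 6.65, 9.53 and 13.4 after PBS and 17.5, 24.9, 25.5 and 43.7 after LPS. All LPS libraries were above all PBS libraries in both fractions. The step was larger in the positive fraction, but edgeR did not call this difference (adjusted p = 0.201). The log2 fold change was 2.73 ± 0.26 there (adjusted p = 4.10e-07) and 1.67 ± 0.37 in input (adjusted p = 0.00346). Mlkl (chromosome 8, 111311800 to 111337903, minus strand) encodes the effector that RIPK3 phosphorylates. It lay at 15.2, 28.7, 29.5 and 30.6 in Positive PBS and at 39.0, 68.6, 71.8, 82.9 and 89.5 in Positive LPS. In input it was at 2.85, 4.56, 7.22 and 8.57 after PBS and at 8.21, 31.2, 35 and 43.1 after LPS, where animal 270 fell within the PBS range. Mlkl rose by 1.43 ± 0.37 on the log2 scale among positive libraries (adjusted p = 0.00522) and by 2.33 ± 0.50 in input (adjusted p = 0.00240). Zbp1 (chromosome 2, 173206612 to 173218922, minus strand) encodes a sensor of Z-form nucleic acid and is known as an interferon-stimulated gene. Positive PBS libraries held 25.0, 39.5, 49.5 and 49.6 normalised counts and Positive LPS libraries 377, 565, 606, 653 and 798. Input libraries held 1.03, 1.82, 9.53 and 11.4 after PBS, the first 2 under the 3 counts taken as the limit of detection, and 55.0, 82.7, 117 and 147 after LPS. Zbp1 had the widest gap between treatments of the 10 genes in each fraction, with log2 fold changes of 3.87 ± 0.34 (adjusted p = 1.91e-07) and 4.04 ± 0.52 (adjusted p = 7.15e-06).

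**Figure D2:**
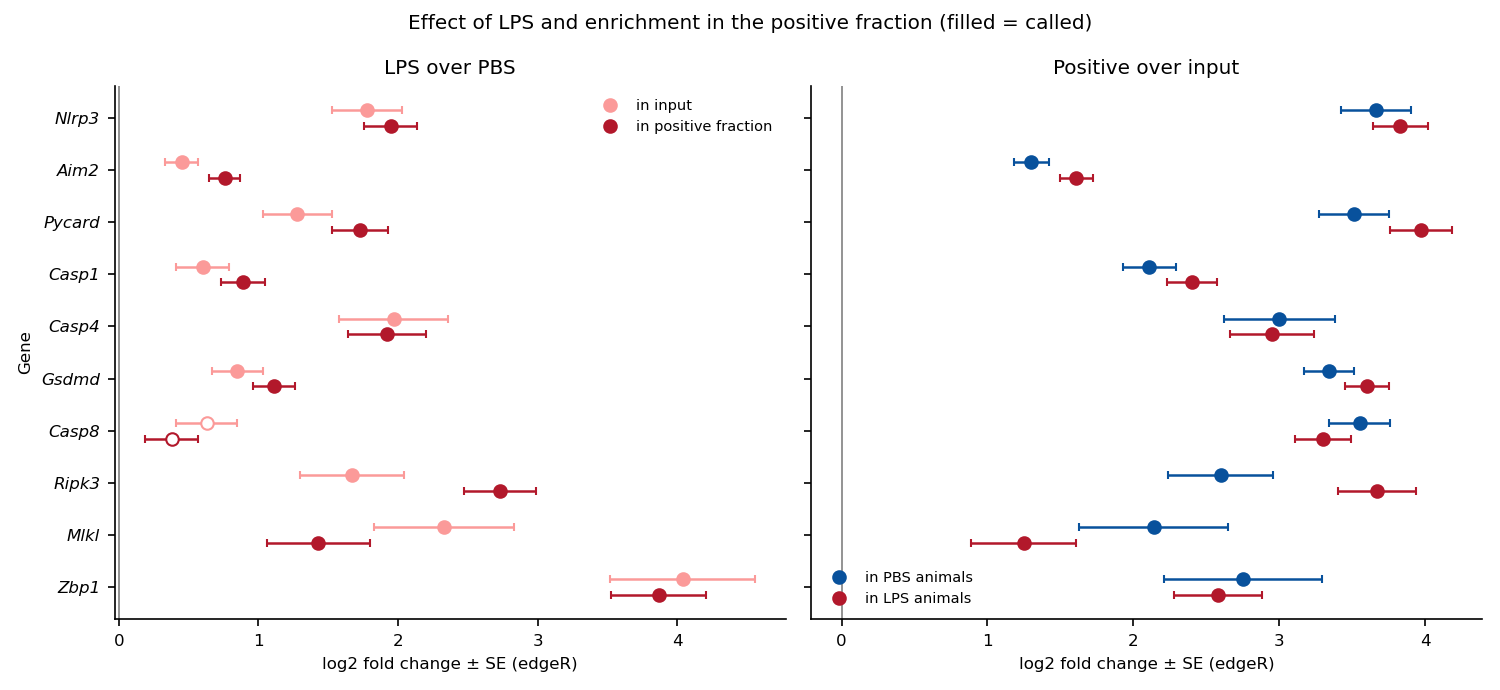
Log2 fold changes with their standard errors (edgeR) for LPS over PBS in each fraction (left) and for positive over input in each treatment (right), 1 line per gene, filled where called. On the left only Casp8 is open, at 0.38 (positive) and 0.63 (input), and on the right all values are filled and none is above 3.97.

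The comparison of positive fraction with input asked how far these transcripts were concentrated in the pulled-down RNA, which also held transcripts of other cell types. All 10 genes were called higher in the positive fraction in PBS animals, where 21.0% of all genes were, and all 10 in LPS animals, where 27.6% were. Mlkl passed the filter only through Positive LPS, so its call in LPS animals was partly set by the filter. In every one of the 4 PBS and 4 LPS animals with both libraries, the positive library was above the input of the same animal for each of the 10 genes. The share of all genes with this pattern was not computed. The median per-animal log2 ratio of all tested genes averaged 0.01 in PBS animals and -0.02 in LPS animals. In PBS animals the log2 fold change was between 3.34 and 3.66 for Nlrp3, Casp8, Pycard and Gsdmd. These values were below the medians of the microglia markers (4.22, range 1.92 to 4.47) and of the border-associated macrophage markers (4.02, range 3.14 to 4.37). They lay within the ranges of both lists. The log2 fold change was 3.00 ± 0.38 for Casp4, 2.75 ± 0.54 for Zbp1, 2.60 ± 0.36 for Ripk3, 2.14 ± 0.51 for Mlkl and 2.11 ± 0.18 for Casp1. It was least for Aim2, at 1.30 ± 0.12. The endothelial markers' median in PBS animals was 1.45. Gsdmd was the most even across PBS animals, with a mean per-animal log2 ratio of 3.33 ± 0.06 (SD, n = 4), and had 3.64 ± 0.06 in LPS animals, where Nlrp3 was the most even (3.75 ± 0.04). In LPS animals Pycard had 3.97 ± 0.21, Nlrp3 3.83 ± 0.19, Ripk3 3.67 ± 0.27 and Gsdmd 3.60 ± 0.15, whereas Mlkl was 2.38-fold higher and its Positive LPS and Input LPS groups overlapped. Aim2 stayed low among them, at 1.61 ± 0.11. The median in LPS animals was 4.03 for the microglia markers, 3.37 for the border-associated macrophage markers and 0.72 for the endothelial markers. The enrichments rest on scaling across fractions. Of all calls in PBS animals 52.8% were higher in the positive fraction, against 37.6% when all 18 libraries set the scaling, which moved the median of all genes to -0.12, and all 10 genes were called under both.

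The order of the 4 groups differed between genes. For 7 genes (Nlrp3, Aim2, Pycard, Casp1, Casp4, Gsdmd and Casp8) every Positive PBS library was above every Input LPS library. Ripk3 and Mlkl overlapped between these groups, with means of 53.0 ± 15.3 in Positive PBS and 27.9 ± 11.2 in Input LPS for Ripk3, and 26.0 ± 7.22 and 29.4 ± 14.9 for Mlkl. Zbp1 alone had all Input LPS libraries (55.0 to 147) above all Positive PBS libraries (25.0 to 49.6). This order was not tested, since these groups differ in fraction and treatment at once. The share of all genes with each order was not computed.

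Whether LPS acted more strongly in the positive fraction than in input was tested as the difference of the log2 fold changes. edgeR called none of the 10 genes in either direction, against 6.88% of all genes tested, and DESeq2, limma voom and the fit with the animal as a block called none of them either. At an unadjusted p under 0.05 there was 1 gene, Ripk3, whose log2 fold change was larger by 1.06 ± 0.45 in the positive fraction (adjusted p = 0.201, and 0.0871 to 0.545 over the alternatives). Of all genes 2899 reached that level. The difference was 0.46 ± 0.32 for Pycard, 0.31 ± 0.16 for Aim2, 0.30 ± 0.25 for Casp1, 0.26 ± 0.23 for Gsdmd and 0.17 ± 0.31 for Nlrp3. It was negative for Mlkl (-0.89 ± 0.62), Casp8 (-0.25 ± 0.29), Zbp1 (-0.17 ± 0.62) and Casp4 (-0.05 ± 0.48). With standard errors up to 0.62 these values do not show that the effects were equal.

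Animal 270 stood low among the LPS animals for most of the 10 genes. It had the lowest value in 8 of the 10 genes in Positive LPS and in 8 of 10 in Input LPS. Of the 2809 genes called higher after LPS in the positive fraction, 41.2% were lowest in that library, and of all tested genes 25.4%. In input the shares were 39.5% of 1060 genes called higher and 34.0% of all. Its input library was also the highest of the group for 36.7% of those called genes and 34.4% of all. Its positive library was the highest for 9.04% and 20.5%. Over all genes its input values were thus not generally low. Relative to the median of the 5 Positive LPS libraries, its values ran from 0.476 for Pycard to 1.0 for Casp4, with a median of 0.705. Animal 270 also had the lowest neutrophil marker sum of the LPS libraries, 431 normalised counts in the positive fraction and 769 in input, whereas its microglia marker sum in the positive fraction, 188338, was the median of the group and that in input, 10559, was the lowest of all input libraries. The part of these measures in the low values was not tested. Without Positive LPS 270 all 10 genes were called higher in the positive fraction, and without Input LPS 270 the count in input was 9.

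**Figure D3:**
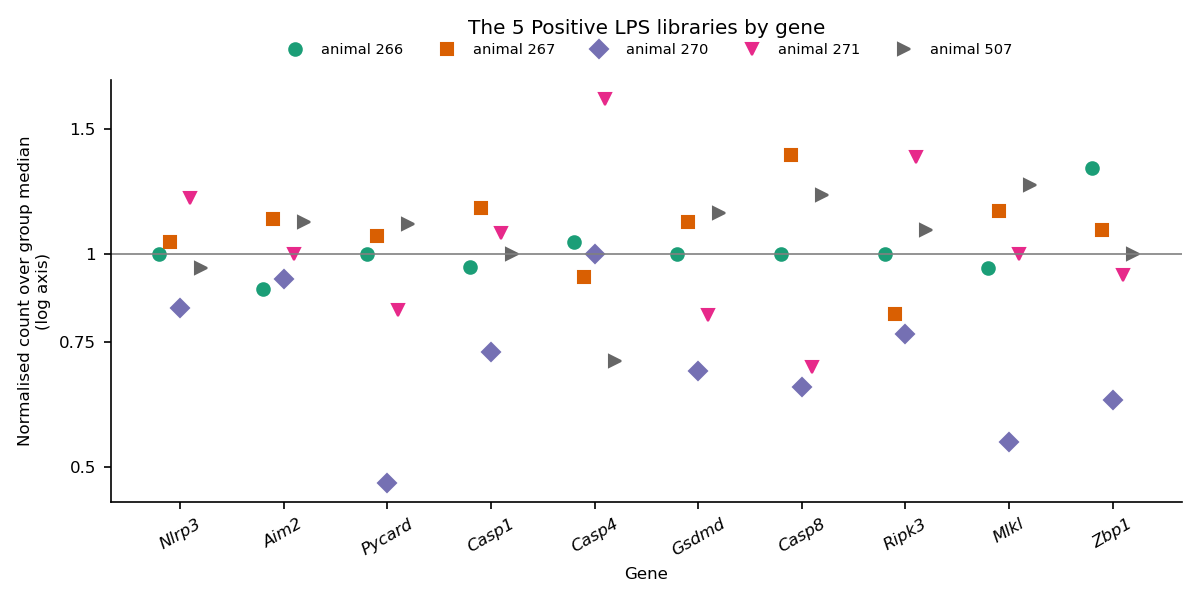
Normalised count of each gene in the 5 Positive LPS libraries, divided by the group median (log axis), with a symbol for each animal. Animal 270 is the lowest in 8 of the 10 genes, down to 0.476 for Pycard, and animal 271 is the highest for Nlrp3, Casp4 and Ripk3.

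Around these genes, a list of 48 further genes of the same pathways was read: other inflammasome sensors and regulators, cytokine substrates, other caspases, other pore formers, and partners in death receptor and necrosome complexes. Of 47 analysed, 40 passed the filter, and Nlrc4, Naip1, Nlrp6, Nlrp12, Mefv, Gsdma and Gsdmc did not. In the positive fraction 19 of 40 were called higher after LPS and 1 lower, and in input 15 higher and 1 lower. Over all 14803 genes tested 19.0% were called higher and 2199 genes lower in the positive fraction, and 7.16% higher and 779 genes lower in input. The median log2 fold change of the 40 genes was 0.33 in the positive fraction and 0.20 in input. Against input, 24 were called higher in the positive fraction in PBS animals (21.0% of all genes) and none lower, and in LPS animals 26 higher (27.6% of all genes) and 2 lower, Casp12 and Cyld, the latter named after its values were seen. Of all 14803 genes, 2785 were called lower in PBS animals and 3817 in LPS animals.

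Among sensors and regulators 8 of 16 tested were called higher in each fraction. NAIP proteins sense bacterial flagellin and parts of bacterial secretion systems. Naip2 rose in the positive fraction from a mean of 519 ± 87.1 (SD) to 1454 ± 236 normalised counts, and in input from 42.9 ± 9.87 to 117 ± 24.3. The corresponding means of Naip6 were 80.9 ± 13.9 and 180 ± 42.2, and 28.3 ± 5.68 and 47.3 ± 8.15. Naip genes are related copies that can share reads to differing degrees, so their separate values are uncertain. The Naip6 call in input was lost with the animal as a block (0.80, adjusted p = 0.0968) and without any 1 of 11 libraries. Guanylate binding proteins, which interferon induces and which coat bacterial membranes and expose LPS to caspase-11, rose most of this class. Gbp2 rose 10.2-fold in the positive fraction, from 215 ± 38.9 to 2202 ± 1015, and 19.4-fold in input, from 81.4 ± 17.9 to 1575 ± 908. Gbp3 rose 2.85-fold and 9.48-fold, Gbp5 3.49-fold and 12.7-fold, and Gm12250, which encodes the partner GTPase IRGB10, 2.39-fold and 4.30-fold. Pstpip1, a partner of pyrin, was called in the positive fraction (log2 fold change 1.11 ± 0.24) with 0.07 ± 0.25 in input. Nek7, the kinase that licenses NLRP3, had 0.16 ± 0.09 in the positive fraction and was called in input (0.59 ± 0.10). Txnip, a redox regulator that binds NLRP3, rose in input from 951 ± 52.5 to 2176 ± 535, whereas its positive-fraction means of 4728 ± 478 after PBS and 3808 ± 872 after LPS did not pass the test, except without Positive LPS 270 (-0.41, adjusted p = 0.0381). The 1 gene called lower in the positive fraction was P2rx7 (-0.53 ± 0.12), the ATP-gated channel whose opening triggers NLRP3, named after its values were seen, and its groups overlapped.

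The cytokines cut by caspase-1 went apart. Il1b rose from 10.4 ± 4.38 normalised counts in Positive PBS to 170 ± 59.1 in Positive LPS, a log2 fold change of 4.03 ± 0.35 (adjusted p = 8.53e-08), and from 6.78 ± 2.76 to 33.4 ± 9.37 in input (2.28 ± 0.40, adjusted p = 4.16e-04). Il1b passed the filter only through its LPS groups, so these calls were partly set by the filter. With no filter its log2 fold change in the positive fraction was 4.03 as well (edgeR, adjusted p = 2.52e-08). Il18 was 356 ± 38.2 and 318 ± 51.1 in the positive fraction (-0.16 ± 0.15, adjusted p = 0.393) and fell by 0.49 on the log2 scale in input (SE 0.15, adjusted p = 0.0413). The Il18 call was lost in 12 of the alternatives, among them leaving out Input LPS 270 (-0.37, adjusted p = 0.136). Among further caspases, Casp12, next to Casp4, was called in input (1.63 ± 0.23) and had 0.49 ± 0.23 in the positive fraction. Casp12 lay between 40.4 and 85.8 in Positive LPS and between 118 and 205 in Input LPS. In LPS animals it was thus lower in the positive fraction than in input (-1.39 ± 0.22), unlike its neighbours Casp1 and Casp4. In PBS animals it was not called (-0.25 ± 0.25, adjusted p = 0.421). Of the other pore formers, neither Dfna5, the symbol under which gasdermin E is listed (-0.14 ± 0.11 and 0.08 ± 0.12), nor Ninj1, which ruptures the membrane after pore formation (-0.07 ± 0.11 and 0.09 ± 0.12), was called.

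Among 15 tested partners in death receptor and necrosome complexes, 9 were called higher in the positive fraction and 5 in input. Tnfaip3 encodes A20, a ubiquitin editor that limits NF-kB and RIPK3. It rose 9.31-fold in the positive fraction, from 339 ± 72.6 to 3157 ± 1114, and 2.82-fold in input, from 132 ± 20.8 to 372 ± 70.8. Birc3 encodes cIAP2, which ubiquitinates RIPK1, and rose 4.09-fold and 3.33-fold. The TNF receptor gene Tnfrsf1a rose 2.15-fold in the positive fraction, from 1548 ± 74.6 to 3334 ± 190, and 3.12-fold in input, from 363 ± 31.9 to 1134 ± 151. Ripk1, the kinase upstream of RIPK3, rose 1.87-fold and 1.54-fold. Fadd, which joins receptors to caspase-8, was called in the positive fraction (0.58 ± 0.17), where its groups overlapped, and had -0.11 ± 0.19 in input. Cflar, which encodes cFLIP and ends 36491 bases before Casp8 starts, had 0.27 ± 0.10 in the positive fraction (1.21-fold, adjusted p = 0.0330), under the fold limit, and 0.20 ± 0.10 in input. It was called without Positive LPS 270 (0.36, adjusted p = 0.00183).

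The LPS effect differed between fractions in 6 of the 40 genes by edgeR, in 11 by DESeq2 and in 14 with the animal as a block. Over all genes edgeR called 6.88%, or 1018 genes, DESeq2 1356 genes and the block fit 1985. It was larger in the positive fraction for Tnfaip3 (difference 1.72 ± 0.31, adjusted p = 0.00209). It was larger in input for Txnip (-1.51 ± 0.23, adjusted p = 4.87e-04), Gbp3 (-1.74 ± 0.35, adjusted p = 0.00515), Gbp5 (-1.86 ± 0.51, adjusted p = 0.0305), Casp12 (-1.14 ± 0.33, adjusted p = 0.0432) and Tnfrsf1a (-0.53 ± 0.13, adjusted p = 0.0137). Without animals 506 and 507 only Tnfaip3 and Txnip were still called, and leaving out a single library ended the Casp12 call for 13 of the 17 libraries and the Gbp5 call for 7. With the animal as a block Il1b (1.78, adjusted p = 0.0240), Pstpip1 (0.97, adjusted p = 0.0177), Fadd (0.71, adjusted p = 0.0299) and Nek7 (-0.45, adjusted p = 0.00366) were called too, beside 4 genes outside the naming rule (Tlr3, Tradd, Sharpin and Ticam1), named after their values were seen. In LPS animals edgeR did not call Gbp5 higher in the positive fraction than in input (0.71 ± 0.32, adjusted p = 0.0629), but voom did both with the block (0.78, adjusted p = 0.00144) and without it (0.83, adjusted p = 0.0186), and so did edgeR without Input LPS 266 (1.28, adjusted p = 5.79e-04) or Positive LPS 267 (0.84, adjusted p = 0.0374). The 6 endothelial markers had a median log2 fold change after LPS of 0.64 in input and 0.03 in the positive fraction. They went both ways, from -0.79 to 1.34 in input (3 called higher, 1 lower) and from -1.86 to 0.75 in the positive fraction (2 higher, 2 lower). None of these markers was called in the difference between fractions, and their part in the differences above was not tested.

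**Figure D4:**
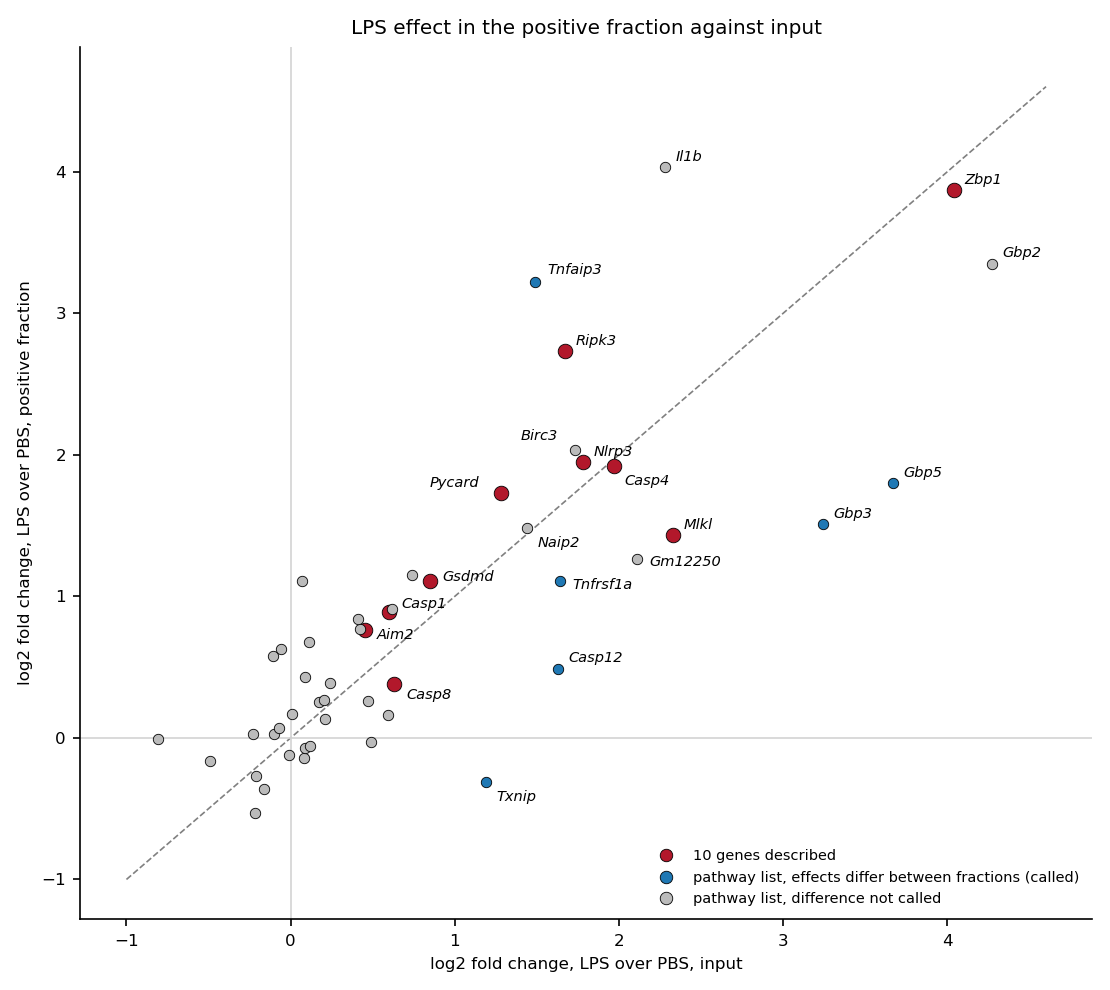
Log2 fold change of LPS over PBS in input (horizontal) and in the positive fraction (vertical) for the 10 genes and the 40 pathway genes tested, with a dashed line where both are equal. Of the 10 genes Ripk3 lies farthest above the line (2.73 against 1.67) and Mlkl farthest below it (1.43 against 2.33), while the called differences are those of Tnfaip3 above and Gbp3, Gbp5, Txnip, Casp12 and Tnfrsf1a below.

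For each of the 10 genes the tested gene with the most similar profile over the 17 libraries was sought, as the smallest root mean square difference of centred log2(normalised count + 1) values. The profile nearest to Nlrp3 was that of C3ar1, the receptor of the complement fragment C3a (0.29, against a spread of Nlrp3 of 2.14). Pycard was nearest to Slc11a1, a metal transporter of phagosomes (0.22 against 2.08), Gsdmd to Fes, a tyrosine kinase of myeloid cells (0.18 against 1.83), and Casp8 to Gpsm3 (0.22 against 1.74). Aim2 was nearest to Tnfrsf11a, which encodes RANK (0.15 against 0.82), and Casp1 to Itpripl2 (0.17 against 1.23). Neighbours were less close for Casp4 with A630001G21Rik (0.51 against 1.88), Ripk3 with Tgfbi (0.37 against 2.01), Mlkl with the chemokine gene Ccl7 (0.48 against 1.37), and Zbp1 with Aoah, whose enzyme deacylates LPS (0.70 against 2.59). All of these libraries share the same 2 contrasts of fraction and treatment, so a near profile is a description.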

How the data were processed

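RNA of input and anti-GFP positive fractions was sequenced from poly-A selected, directional libraries. Per the labels and the study's methods, the authors aligned reads by strand to mm10 in Strand NGS and deposited estimated counts per RefSeq gene (81.6% of values above 0 were not whole) beside normalised log2 values made with DESeq (version not given in the sources used here). The deposited log2 columns were not used. Counts were rounded, scaled by medians of ratios over 15766 genes (size factors 0.766 to 1.32) and filtered to 14803 genes with over 20 normalised counts in every library of at least 1 group. edgeR 4.0.16 (quasi-likelihood, R 4.3.3) was fitted with 1 mean per group over 17 libraries (13 residual degrees of freedom), where the study used an analysis of variance. A call needed a Benjamini-Hochberg adjusted p under 0.05 over all tested genes and a change of more than 25%. Errors of log2 fold changes are standard errors and those of means are SD.

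Input and positive libraries came from the same animals, and their deviations from group means correlated at 0.16 to 0.519 in every animal. The block fit used limma 3.58.1 (voom, correlation 0.445). Other alternatives were DESeq2 1.42.0, voom alone, TMM scaling, other filters, all 18 libraries, each library left out, animals 506 and 507 left out, the compared libraries alone and sex as a covariate. The limit of detection of 3 counts covers counting error only. The 10 genes, the pathway list and the marker lists were chosen with earlier results of these data known. Pathway genes were named if called with an absolute log2 fold change of at least 1 in either fraction or if direct partners of the 10 genes (2 of these partners are not reported here), and the nearest profile was named for each of the 10 genes.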

Additional observations from a re-analysis of the deposited data

Results flagged for a closer look

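Values that stood apart from the rest of their group by Dixon's test were sought in 120 groups of 30 genes, and 6 were found, where chance gives about 1 in 20 groups. Mlkl was at 15.2 normalised counts in the positive fraction of PBS animal 268, below the other Positive PBS libraries (28.7 to 30.6). In input, PBS animal 272 was high for Pstpip1 (101), Gbp3 (136) and Gm12250 (14.4). LPS animal 270 was low for Cflar (2212) in the positive fraction. LPS animal 271 was high for Tnfaip3 (5140) in the positive fraction.

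The LPS effect differed between the fractions by edgeR's test of the difference for 6 pathway genes and for none of the 10 genes. As positive minus input on the log2 scale, the difference was -1.51 for Txnip, -1.74 for Gbp3, -1.86 for Gbp5, -1.14 for Casp12, -0.53 for Tnfrsf1a and 1.72 for Tnfaip3.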

How the results depend on the processing

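Over all alternatives, 1300 of the values of the 10 genes kept their direction and their side of the threshold, 17 lost the call, 9 gained it and 11 changed sign, all of these in the difference between fractions, where no gene was called. Leaving out 1 library at a time gave 9 to 10 of the 10 genes called in the positive fraction, 7 to 10 in input and 0 in the difference. In PBS animals 9 of 10 were called higher in the positive fraction when only the libraries compared were fitted, as Mlkl then failed the filter. In input, the count of 9 became 10 with DESeq2, 8 with no filter and 7 with voom, with input libraries alone or without animals 506 and 507. With the animal as a block (paired fit) 6 were called in input, since Aim2, Casp1 and Gsdmd were lost, and Naip6 was lost there too, and no other call of the 10 genes changed. The 6 pathway genes called in the difference became 11 with DESeq2, 14 with the replicate block and 2 without animals 506 and 507. Over all genes, calls in the difference went from 1018 to 1985 with the block and to 323 without animals 506 and 507. The share of calls with a difference above 0, as positive minus input, was 79.4% in the main fit and 69.2% with the block. A difference above 0 can also come from a larger fall in input. Calls in input went from 1839 to 1083 without animals 506 and 507. Scaling over all 18 libraries moved the share of calls higher in the positive fraction in LPS animals from 51.7% to 43.2%, with a median of -0.11.

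Leaving out 1 library changed the sign of differences near 0, with ranges of -0.00 to 0.34 for Nlrp3, -0.56 to 0.19 for Casp4, -0.68 to 0.15 for Zbp1, -0.10 to 0.13 for Naip2 and -0.00 to 0.16 for Cflar. The LPS effect in the positive fraction ranged from -0.14 to 0.02 for Ninj1, and that in input from -0.04 to 0.36 for Pstpip1 and -0.25 to 0.04 for Fadd. Positive over input ranged from -0.09 to 0.39 for Pstpip1 in PBS animals and from -0.11 to 0.30 for Gbp3 in LPS animals. With all 18 libraries Pstpip1 had -0.03 and Dfna5 -0.04 in PBS animals, and Gbp3 -0.05 in LPS animals. Without animals 506 and 507 the difference was 0.26 for Casp4. The cause of these changes was not tested. Counts under 20 in input limit Casp4, Ripk3, Mlkl and Zbp1 most.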
